A study of Homo sapiens with 23 samples.

Results

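This account concerns the DNA regions called as peaks of R273H mutant p53 outside the places where those peaks crowd together. The R273H peak list held 25309 rows, each a summit called by MACS2 at a q of 0.05, and 24756 of them lay on chromosomes 1 to 22 and X. These chromosomes were cut into bins of 1 Mb by the start of each row. A row was kept where its bin held fewer than 10 rows and where its region overlapped no region of the list of wild-type p53 by 1 bp. The rule left 4411 members in 4378 regions, spread over 1961 bins. It set aside 20136 rows in 190 crowded bins and 209 rows that were shared with the wild-type list. The members were thus chosen by the calls, the spacing and the overlap of their peaks, so their enrichment, q values and spacing are descriptions and are not tested.

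The cells were MCF10A, an established, non-transformed human mammary epithelial line, left untreated. Each mutant line stably carried a lentiviral construct for a p53 missense mutant with a V5 tag at its C terminus and kept its own wild-type p53. Chromatin was taken with an antibody to the V5 tag from the R273H, R273C, Y220C and Y234C lines and from WTOE, the control line that expressed V5-tagged wild-type p53 from another vector, and each was set against its own input DNA. RNA was measured in 13 lines, which were 10 mutant lines (R273H, R273C, Y220C, Y234C, R248Q, R248W, R175H, H179R, G245S and Y163C) and 3 controls, namely WT with untagged endogenous p53, WTKD with p53 lowered by shRNA, and WTOE. Each line gave 1 library per assay, so no difference between lines could be tested, and intervals below (95%, exact binomial) cover counting error only.

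p53 is a tetrameric transcription factor that reads paired copies of a short palindromic decamer and switches on genes of cell cycle arrest, apoptosis and DNA repair. The arginine named in R273H touches DNA in the wild-type protein, and its change to histidine weakens binding to those sites. Much of the human genome consists of repeats. LINE-1 is the retrotransposon that still copies itself, Alu is a short element that derives from 7SL RNA and borrows the LINE-1 machinery, SVA is a young composite element that does the same, and tandem repeats are short units copied head to tail.

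The sequences under the members carried the main pattern, so examples are shown before the values. All are read from GRCh38 on the plus strand. The 5 members named for their q were all tandem repeats, and the 4 printed here follow the top member, an array of the telomere repeat near the end of the X chromosome. Capitals mark the repeat period a search up to 75 bases found in each. The first is an array of a satellite pentamer, for which the best period was 75 bases, a multiple of the pentamer, and the others have units of 39, 32 and 27 bases.

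chr21:10692811-10692930: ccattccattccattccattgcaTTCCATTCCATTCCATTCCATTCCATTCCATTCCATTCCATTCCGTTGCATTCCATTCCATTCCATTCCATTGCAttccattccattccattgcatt
chr12:71564301-71564420: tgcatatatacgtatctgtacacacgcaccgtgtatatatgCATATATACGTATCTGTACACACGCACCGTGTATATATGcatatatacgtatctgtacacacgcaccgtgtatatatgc
chr6:166783969-166784088: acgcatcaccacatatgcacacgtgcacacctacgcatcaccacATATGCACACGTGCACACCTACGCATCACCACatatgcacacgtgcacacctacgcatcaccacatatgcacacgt
chr2:206375028-206375147: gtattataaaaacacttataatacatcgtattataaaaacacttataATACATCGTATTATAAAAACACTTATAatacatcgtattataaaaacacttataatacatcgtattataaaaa

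Interspersed repeats made up most of the other members. The strongest LINE-1 member, at chr2:133911131-133911909, stacked 20 fragments, and its summit lies at base 798 of the element. The strongest Alu member lies in the promoter of WEE1, a kinase that holds cells before mitosis, and the second SVA member by q lies in the promoter of CAB39L, a scaffold of the LKB1 kinase complex.

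A full p53 site, which is a pair of the p53 decamer with a spacer of 0 to 13 bases, lay within 150 bp of the summit in 3 members. These are shown because they hold the sequence p53 is known for, with the site in capitals. The strongest of them lies 18 bases from a start of the long noncoding RNA gene LNCTAM34A and within MIR34AHG, the host gene of miR-34a, a microRNA known as a direct target of p53. The other two are intergenic, on chromosome 9.

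chr1:9182124-9182183: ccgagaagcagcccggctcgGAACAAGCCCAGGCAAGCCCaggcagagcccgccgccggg
chr9:115944271-115944340: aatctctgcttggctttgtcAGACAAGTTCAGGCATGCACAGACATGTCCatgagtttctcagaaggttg
chr9:39603228-39603296: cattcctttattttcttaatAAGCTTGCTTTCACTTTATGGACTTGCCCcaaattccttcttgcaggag

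The members were shallow peaks. Their fold enrichment over local input, the ChIP fragment pileup plus 1 over the expected pileup plus 1, ranged from 1.51 to 16.9 with a median of 4.22. The whole number of fragments stacked at a summit could be recovered from fold and p for 99.97% of the R273H rows (within 0.001 in log10 p), and among members it had a minimum of 5, a median of 6 and a maximum of 260. In all, 24.6% of members rested on 5 fragments, 83.3% on at most 8, and 10.4% on at least 10. The expected pileup sat at the genome-wide floor of 0.660 fragments for 2588 members (58.7%). That floor was 3.55 fragments in the WTOE list and 2.84 to 3.29 in the lists of the other 3 mutants, and the lowest pileup called there was 12 to 14 fragments. The R273H call therefore reached regions of fewer fragments than any other list, and a difference between the lists cannot be told apart from this difference in depth.

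The crowding threshold cut through a smooth range. The 21 bins that held 9 rows gave 171 members, and the 189 rows of these bins had a median fold of 4.23, against 4.44 for the 180 rows of the 18 bins with 10 rows. The smallest gap from a member to a WTOE region was 31 bp, the smallest overlap that led to exclusion was 2 bp, and the median gap was 189 kb. Members lay at 1.61 per Mb of the uncrowded bins, from 1.19 on chromosome 13 to 3.23 on chromosome 19. WTOE peaks of the same bins ran from 0.587 per Mb on X to 16.6 on chromosome 20. The WTOE rows had no cap per bin, whereas the rule capped the members and removed overlaps, so evenness is not compared.

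LINE-1 sequence was the largest class. A window of 301 bases was read around each summit (4409 of the 4411 windows could be read), and windows that aligned to each other over at least 100 bases at 75% identity were joined into families. The largest family joined 1665 members. Within 7000 bases of the summit, 319 of them had an open reading frame of 1275 codons and 225 had this frame together with an upstream frame of 338 codons, the ORF2 and ORF1 of an intact LINE-1. The second family joined 809 members, and 82.6% of them aligned to RN7SL1, the 7SL RNA gene from which Alu derives. The third joined 387 members of high GC content (median 67.8%), and 35.1% of them had 3 copies of the hexamer CCCTCT, a mark of the SVA 5′ end, within 2000 bases, against under 0.13% of the other 2 large families. No repeat annotation was used, and these names rest on the sequence marks given here.

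Each window was then assigned to the reference copy it matched best, which was an intact LINE-1 of 6030 bases, an Alu or an SVA stretch, each taken from a member. LINE-1 held 1668 members, or 37.8% (36.4 to 39.3). The same class held 12.1% of windows shifted from the members by 5 kb, 3.36% of WTOE peaks outside the crowded bins, and 5.34% of all windows of those bins. Alu held 746 members (16.9%), against 12.4% of shifted windows, 32.9% of WTOE peaks and 10.6% of all windows. SVA held 279 members (6.33%), against 0.0681% of shifted windows, 0.389% of WTOE peaks and 0.0714% of all windows. LINE-1 windows were thus far more frequent at member summits than in the genome around them, while Alu was most frequent in the WTOE list. Among the 209 R273H rows shared with WTOE, LINE-1 held 23.4% (17.9 to 29.8), Alu 5.26% and SVA 4.78% (2.32 to 8.62). High LINE-1 and SVA shares were thus not particular to the members. The SVA stretch was the member window that aligned to the most others of its family, so SVA windows elsewhere in the element are missed. How far this choice widens the SVA contrast was not tested.

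**Figure D1:**
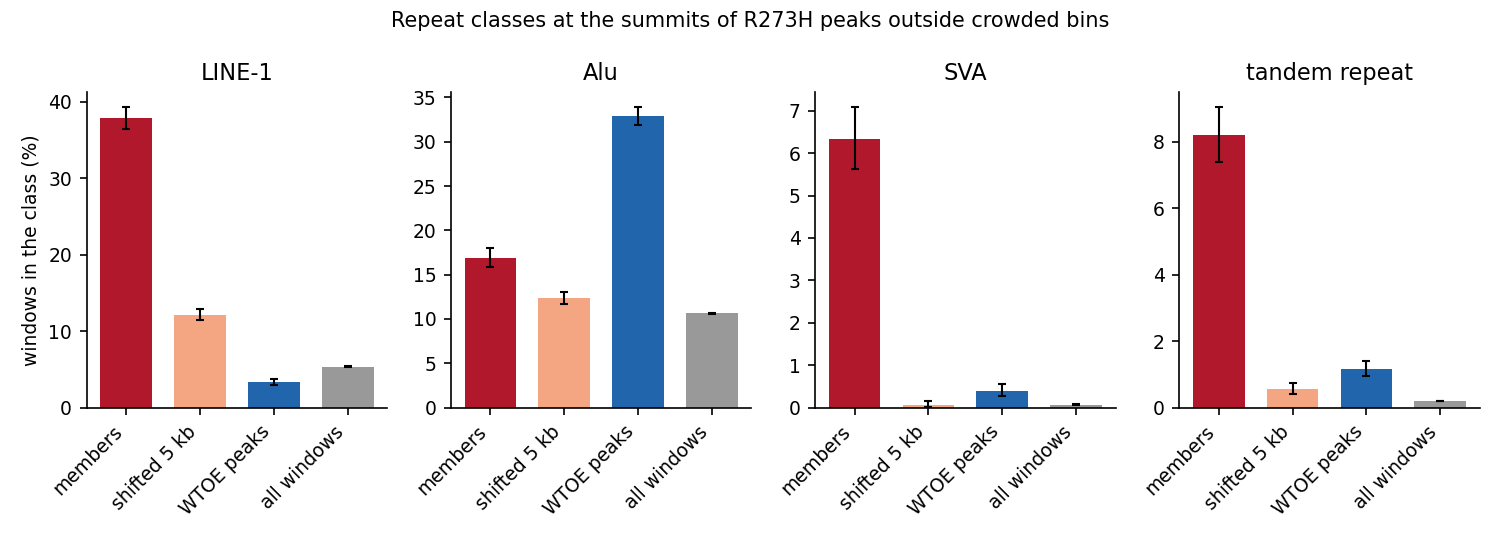
The share of 301-base windows in each repeat class (y axis, %) is drawn for members, windows 5 kb to either side of them, WTOE peaks outside the crowded bins and all windows of those bins, with 95% exact binomial intervals and a separate scale per panel. Members stand at 37.8% for LINE-1, 6.33% for SVA and 8.19% for tandem repeats, above the other 3 sets, and WTOE peaks stand highest for Alu. The SVA class covers only the stretch of the element that was taken from a member. The 209 R273H rows shared with WTOE are not drawn, and 27.8% of them were tandem repeats and 23.4% LINE-1.

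The other mutant lists did not share the LINE-1 share. Outside the crowded bins, LINE-1 held 6.09% of 608 Y220C summits (4.32 to 8.29), 4.22% of 854 Y234C summits (2.97 to 5.79) and 1 of 54 R273C summits. SVA held 4.22% of the Y234C summits and 0.822% of the Y220C summits. R273C, a change at the same residue, had too few rows there for its share to be read closely, with an interval from 0.0469% to 9.89%.

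LINE-1 windows under members were closer to the intact copy than LINE-1 windows at large. That copy was itself taken from a member, and how far this choice widens the contrast was not tested. The median identity of member windows to the intact copy was 98.7% (25th to 75th percentile 97.7 to 99.3), against 89.4% (81.4 to 95) for all LINE-1 windows of the uncrowded bins. Windows of at least 95% identity made up 35.7% of members (34.3 to 37.1), 8.20% of shifted windows, 1.33% of WTOE peaks and 1.36% of all windows. They made up 21.5% (16.2 to 27.7) of the 209 R273H rows shared with WTOE. For Alu the same comparison gave a median of 85.6% in members and 83.4% in all windows, relative to an Alu copy.

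Whole LINE-1 copies showed the same gradient. The uncrowded bins held 1961 copies that aligned in a single stretch to at least 90% of the intact element, and 721 of them (36.8%) contained the summit of a member. The share was 15.9% (13.7 to 18.3) of the 1036 copies of 95 to 97% identity, 40.4% (35.9 to 45) of the 468 copies of 97 to 98%, and 84.4% (80.6 to 87.7) of the 435 copies of at least 98%. Among the 125 copies with both reading frames whole, 113 held a member, or 90.4% (83.8 to 94.9). The reference copy itself, with 4 member summits, is counted among the copies of at least 98% and those with whole frames. At an identity of at least 97%, the share was 90.3% (83.7 to 94.9) of copies with both frames whole and 57.0% (53.4 to 60.5) of the others. Identity still differed between these groups, with medians of 99.2% and 97.8%, so frames and identity cannot be told apart here. WTOE summits lay in 8.51% (6.06 to 11.5) of the copies of at least 98%, Y234C summits in 2.76%, Y220C summits in 2.07% and R273C summits in none of the 435. R273C summits lay in 0 of all 1961 copies. Outside the crowded bins the R273C list held only 54 readable summits, the Y220C list 608 and the Y234C list 854. Lists this short can reach few of the copies, so their shares of copies cannot be compared with that of R273H.

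**Figure D2:**
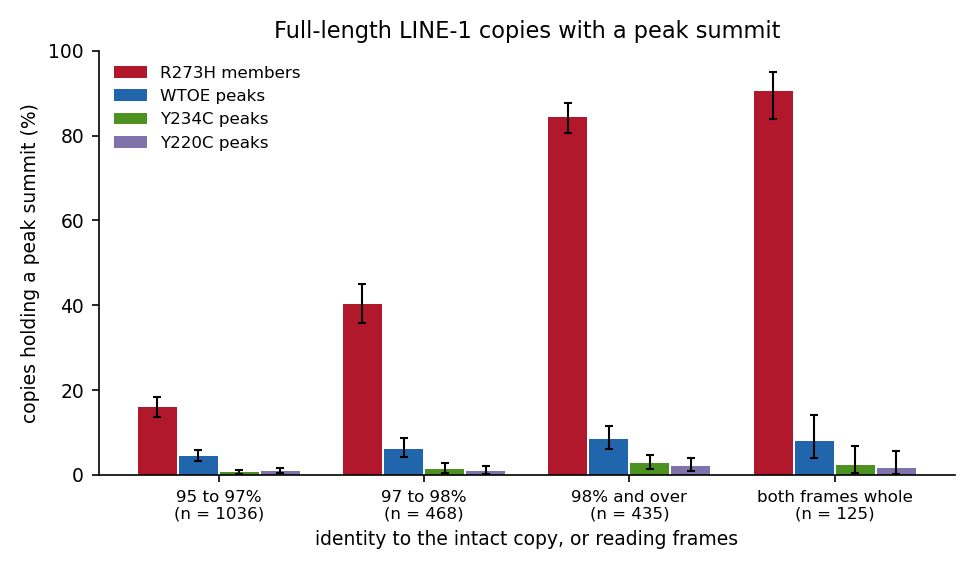
The share of full-length LINE-1 copies that contain a peak summit (y axis, %) is drawn by identity to the intact copy and for copies with both reading frames whole, with 95% exact binomial intervals. R273H members climb from 15.9% to 84.4% of copies across the identity steps and reach 90.4% of copies with whole frames, while no other list passes 8.51% in any step drawn. The Y220C and Y234C lists held only 608 and 854 readable summits outside the crowded bins, which limits their shares. The intact copy was taken from a member.

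Of the 1668 LINE-1 members, 1063 lay in these full-length copies. A copy often held several summits, with at least 2 in 238 copies, at least 3 in 82, and 5 at most. Copies with 5 member summits lay at chr16:33952578-33958610, chrX:73380993-73387014 and chr5:13416501-13422525, were 99.1% to 99.3% identical to the reference copy, and overlapped no annotated gene. Among the copies with a member, 258 of 721 lay wholly inside a protein-coding gene. The like share over all full-length copies is not given here, so nothing about the members is read from this count. Fragments from copies this similar can be placed at more than a single copy, and the alignment named no filter on mapping quality. The same holds for SVA and tandem copies, and the part of this placement in the counts per copy and in the shares and depths of the repeat classes was not tested.

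Summits gathered toward both ends of the element. Bases 501 to 1000, just before and into the start of ORF1, held 337 of the LINE-1 members (20.2%), against 3.35% of all windows of at least 95% identity. Bases 5501 to 6000, at the end of ORF2 and beyond, held 381 members (22.8%), against 12.2%. Between bases 2001 and 5000 each step of 500 bases held 2.22% to 6.83% of members, against 5.90% to 14% of those windows. The windows come from LINE-1 copies of any length, whereas 1063 of the 1668 LINE-1 members lay in full-length copies. The part of copy length in these contrasts was not tested.

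**Figure D3:**
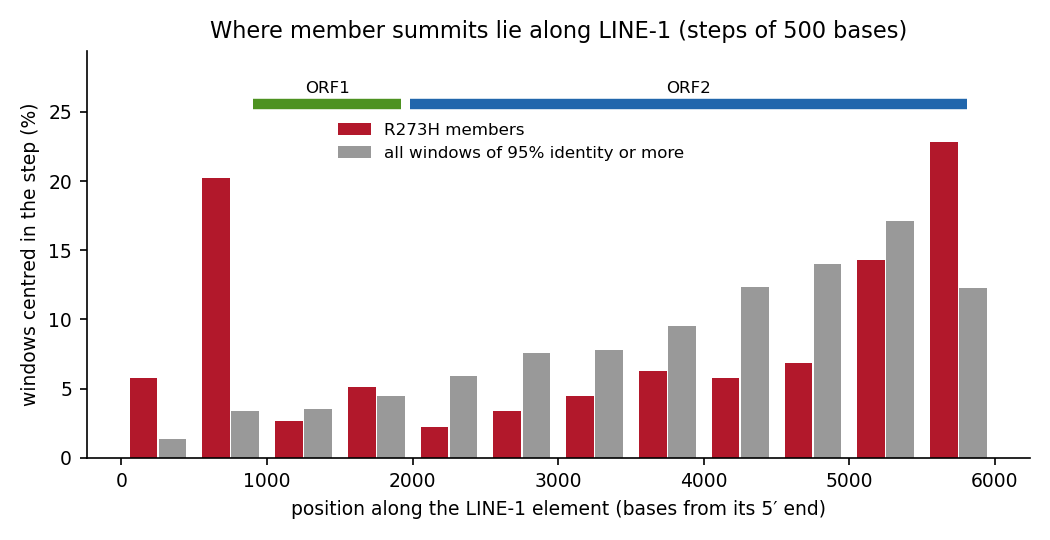
The share of LINE-1 members and of all LINE-1 windows of at least 95% identity (y axis, %) is drawn by the position of the window centre along the element (x axis, bases from its 5′ end), with bars above for the reading frames ORF1 and ORF2. Members peak at bases 501 to 1000 (20.2%) and 5501 to 6000 (22.8%), whereas the windows rise step by step to 17.1% at bases 5001 to 5500 and fall to 12.2% in the next step. The windows come from LINE-1 copies of any length.

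Tandem repeats made up the strongest members. A window was called a tandem repeat where at least 70% of its bases equalled the base a single period further on, for a period of 1 to 75 bases, a limit set after values had been seen. By this measure 361 members (8.19%, 7.40 to 9.04) were tandem repeats, against 0.557% of shifted windows, 1.16% of WTOE peaks and 0.199% of all windows. The share was higher, 27.8% (21.8 to 34.3), among the 209 R273H rows shared with WTOE, so it was not particular to the members. The median period of the tandem members was 40 bases, 137 had at least 95% equal bases and 39 were exact copies throughout. They stacked a median of 9 fragments, against 6 for the other members. The share rose with the −log10 q of the member, from 3.52% of the 1336 members under 2 to 29.7% of the 306 members between 6 and 12 and 78.8% (65.3 to 88.9) of the 52 members at 12 or more. Since q also chose the members, this order is a description.

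**Figure D4:**
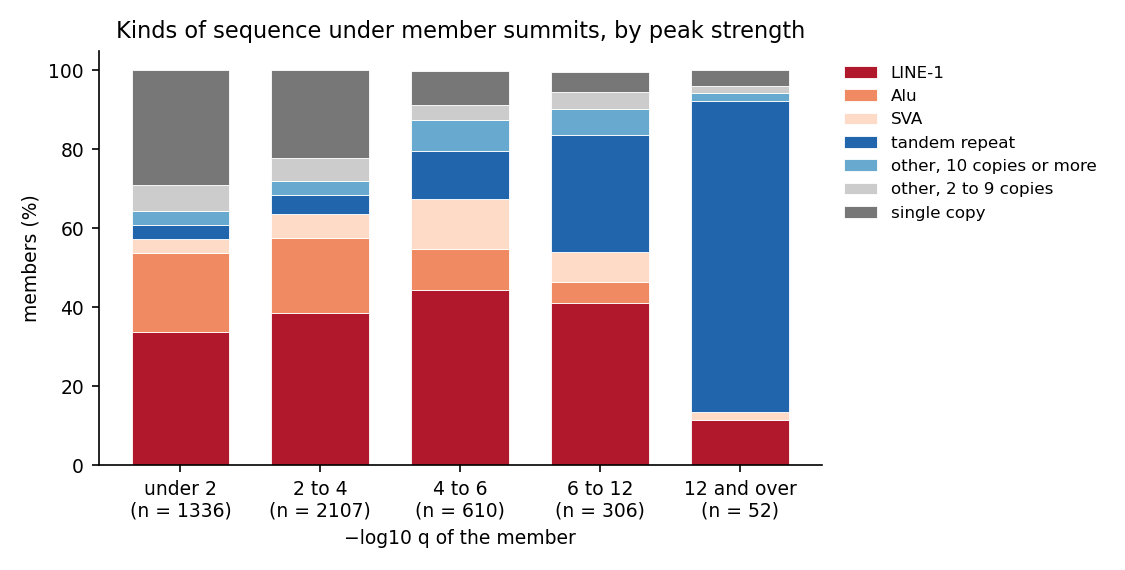
Each bar divides the members of a −log10 q range (x axis, with the number of members) into kinds of sequence at the summit (y axis, % of members). LINE-1 is the largest kind in every range below 12, tandem repeats fill 78.8% of the members at 12 and over, and single-copy sequence falls from 29.0% to 3.85%.

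Tandem members lay toward chromosome ends. Of the 361, 199 (55.1%, 49.8 to 60.3) were within 5 Mb of a chromosome end, where 5.99% of the bases of the uncrowded bins lie, and 6.74% (5.99 to 7.56) of the other 4050 members were as close. Of all members 10.7% were as close, against 13.5% of WTOE peaks outside the crowded bins. The like share of all tandem repeat windows is not given here, so nearness to ends is not read as particular to the members. The most extreme was the strongest member of all, the telomere array at chrX:156030365-156030731, which stacked 98 fragments over an expected 8.02 at 10.3 kb from the chromosome end (−log10 q of 64.9). The satellite array at chr21:10692730-10693074 stacked 165 fragments over an expected 47.5, so its fold was only 3.42. The member at chr12:71564093-71564674, in an intron of LGR5, a stem cell receptor for R-spondins, had 27 fragments over the floor of 0.660 and the highest fold of all members, 16.9. The members at chr6:166783847-166784763, in an intron of the kinase gene RPS6KA2, and at chr2:206374807-206375427, between genes, had 41 and 27 fragments and units of 32 and 27 bases that repeated without a mismatch.

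The remaining members belonged to none of these classes. Of them, 192 had a median of at least 10 genome copies over 5 sampled 31-base words, 249 had 2 to 9 copies and 924 (20.9% of members, 19.8 to 22.2) were single copy. Single-copy members had a median fold of 4.02, stacked a median of 6 fragments, and 18 of the 924 passed a −log10 q of 6, against 132 of the 1668 LINE-1 members and 132 of the 351 tandem members outside the 3 families. The strongest single-copy member, at chr20:61349887-61350369 in an intron of the cadherin gene CDH4, stacked 21 fragments with a fold of 13.3.

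The p53 decamer was little more frequent at members than beside them. It lay within 150 bp of 459 member summits (10.4%, 9.52 to 11.3), against 9.37% (8.77 to 10.0) of shifted windows, 7.69% of all windows and 7.23% of WTOE peaks. The share among members differed by class. It was 19.1% (17.3 to 21.1) in LINE-1 members, 4.69% in Alu members, 1.42% in tandem members outside the 3 families, 7.58% (5.95 to 9.47) in single-copy members, and 0 of 279 in SVA members. The decamer also lay in LINE-1 away from members: among LINE-1 windows of at least 95% identity it was in 19.8% of members, 26.3% of shifted windows and 16.3% of all windows. Among windows of no family it was in 6.12% (5.03 to 7.36) of members and 7.89% of all windows. Full p53 sites were in 3 members (0.0680%, 0.0140 to 0.199), 0.0568% of shifted windows, 0.0381% of all windows and 0.106% of WTOE peaks.

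The 3 members with a full site were modest peaks. The member at chr1:9182038-9182374, at the LNCTAM34A start, stacked 10 fragments with a fold of 5.39. The member at chr9:115944192-115944486 had 7 fragments and a fold of 4.82, and that at chr9:39603298-39603638, whose site lies 113 bases from the summit and just outside the called region, had 5 fragments and a fold of 3.62. None overlapped another mutant list.

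Motifs of other factors, searched on both strands in the same windows, differed in both directions. The GC box GGGCGG, read by SP and KLF factors, was in 15.4% (14.3 to 16.5) of members, 5.17% of shifted windows and 3.99% of all windows, beside a GC content of 47.8%, 41.5% and 39.9%. It was in 16.5% (15.7 to 17.3) of WTOE peaks, of 53.5% GC content, and in 17.2% of the 209 R273H rows shared with WTOE. The GC box was thus not particular to the members. The AP-1 motif TGANTCA was in 3.29% (2.78 to 3.86) of members, 8.62% of shifted windows, 9.38% of all windows and 6.47% of WTOE peaks. The TEAD motif CATTCC was in 11.6% of members, 14.2% of shifted windows and 15.6% of all windows, the MYC E-box CACGTG in 2.74%, 3.30% and 2.68%, and the CUX1 motif ATCGAT in 0.272%, 0.670% and 0.874%. In WTOE peaks the shares of TEAD, E-box and CUX1 motifs were 12.2%, 5.53% and 0.672%. A match is only a run of letters, and its absence from a window says nothing of a factor.

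Few members recurred in another mutant. Overlap by 1 bp with a region of the R273C, Y220C or Y234C list was seen for 76 members (1.72%, 1.36 to 2.15), which were 13 with R273C, 33 with Y220C and 44 with Y234C. From the other side, 13 R273C rows, 31 Y220C rows and 47 Y234C rows overlapped a member. These were 1.77%, 1.97% and 2.19% of the whole lists, which include crowded bins and other sequences where the rule allows no member. Outside the crowded bins the 3 lists held only 54, 608 and 854 readable summits, so the low shares of the whole lists rest largely on that base. The share was 6.55% in tandem members outside the 3 families, 5.02% in SVA members, 1.14% in LINE-1 members, 0.536% in Alu members and 0.325% in single-copy members. For comparison, 33.5% of the 209 rows shared with WTOE overlapped another mutant list.

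Overlap with at least 2 other mutant lists was seen for 13 members. The 5 named by q came from just 2 regions. The region chr17:21975808-21977171, a satellite array of the pentamer repeat near the centromere, gave 4 of them, with 35 to 46 fragments over an expected 7.13 to 8.91, and overlapped the R273C and Y220C lists. The region chr1:152216455-152217216 was the only member in all 3 lists. It lies in an exon of HRNR, which encodes hornerin, a repetitive protein of the skin barrier, and it stacked 15 fragments with a fold of 8.34 on a 39-base unit, shown here with the unit in capitals.

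chr1:152216807-152216886: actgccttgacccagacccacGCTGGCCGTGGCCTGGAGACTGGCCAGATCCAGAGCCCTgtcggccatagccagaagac

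Members lay mostly in introns and between genes. A summit was counted in a promoter where it fell from 2500 bases before to 100 after an annotated transcript start. Any annotated transcript counted, so a promoter can lie inside its gene, away from the main start. Promoters held 533 members (12.1%, 11.1 to 13.1), against 9.08% of the bases of the uncrowded bins and 18.3% of WTOE peaks. Exons held 2.88% of members and 3.75% of bases, introns 49.8% and 51.5%, and intergenic sequence 35.2% and 35.7%. The promoter share was 22.6% (20.0 to 25.5) in single-copy members, 14.6% in Alu, 11.4% in tandem repeats outside the 3 families, 8.60% in SVA and 3.84% (2.97 to 4.87) in LINE-1 members.

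The 10 protein-coding genes whose promoters held the strongest members were mostly reached through repeats. The member at HTT, the huntingtin gene, stacked 18 fragments on a 34-base tandem unit with a −log10 q of 16.7, and its summit on chromosome 4 at base 3227588 lies before the start of a transcript that begins inside the gene. RAB11FIP3, an effector of RAB11 in endosome recycling, also had 18 fragments, on a 62-base unit (−log10 q of 13.3). MICAL3, FARP2, DENND1A and C10orf90 had tandem repeats too, with 22, 12, 13 and 11 fragments. IL20RB, a cytokine receptor subunit, tied with C10orf90 in fold and q (11 fragments, not a tandem repeat) and fell outside the 10 by alphabetical order. CAB39L had the SVA and WEE1 the Alu named above, with 14 and 12 fragments. WDR27 had 12 fragments on a sequence of 2 to 9 copies, and DLGAP2, a scaffold of the synapse, had 13 on single-copy sequence.

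RNA of R273H was below all 9 other mutant lines for 4 of these genes, above all 9 for 1 and inside their range for 5. Over all protein-coding genes tested, 23.0% were below all 9 and 9.80% above, and nothing is read from a count of 10 genes. On the log2(TPM + 1) scale, where TPM is the transcript abundance scaled to a common library total, HTT was at 4.05 in R273H and from 3.33 to 5.39 (median 4.84) in the other 9 mutant lines, so R273H lay inside their range. WEE1 was at 3.36 in R273H, below the range of 3.48 to 5.80 (median 5.07) in the others. FARP2, an exchange factor for RAC1, was at 4.37, below 5.28 to 6.5 (median 5.92). WDR27 was at 0, below 1.69 to 3.79, and DENND1A, an exchange factor for RAB35, was at 0, below 2.71 to 4.51. MICAL3, an actin-oxidizing enzyme, was at 3.78, above 1.27 to 3.44 (median 2.74). CAB39L was at 3.36, within 1.24 to 3.48, RAB11FIP3 at 2.75, within 1.96 to 3.88, C10orf90 at 0.14, within 0 to 3.10, and DLGAP2 at 0, where the others reached 0.29 at most. IL20RB, the tied gene, was at 4.30, below 5.13 to 7.09.

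The R273H RNA library stands apart from the rest, which bears on every RNA value here. It had the fewest genes above 0 (12122, against 12284 to 15975 in the others), and the median of all 11562 protein-coding genes tested was 0.69 lower on the log2 scale than the mean of the other 9 mutant lines. Of 9 markers of basal mammary epithelium, R273H was below all other mutant lines for 5, which were CDH1 (0.25 against 0.96 to 6.29), KRT14 (0 against 0.71 to 8.23), LAMB3 (5.08 against 7.22 to 8.74), ITGB4 (4.51 against 5.49 to 7.76) and KRT5 (9.97 against 10.01 to 11.85). KRT6A was above them all (10.98 against 9.02 to 10.87), and EGFR (7.61), KRT17 (3.33) and TP63 (0) lay inside their range. The 4 fibroblast markers also lay inside it, with PDGFRB at 2.23 (0 to 2.60, median 0), DCN at 1.61, PDGFRA at 0.36 and LUM at 0. The endothelial markers PECAM1, VWF and CDH5 were at 0 in R273H, and the blood markers PTPRC, CD3E and HBB were at 0 in every line. The part of these features in the values below was not tested.

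Promoter genes had a median near that of the whole library. Of 591 genes with a member in a promoter, 329 are protein-coding, and 238 of these reached 1 in log2(TPM + 1) in at least 3 of the 13 lines. Their median difference between R273H and the mean of the other 9 lines was −0.67, against −0.69 over all protein-coding genes tested. Of the 238, 20 were at least 1 higher in R273H, or 8.40% (5.21 to 12.7), against 11.2% of all protein-coding genes, and 83 were at least 1 lower, or 34.9% (28.8 to 41.3), against 38.4%. R273H lay above all 9 other lines for 18 of them (7.56%, background 9.80%) and below all 9 for 49 (20.6%, background 23.0%). Scaling the lines to a common distribution changed the split to 34 higher (14.3%) and 43 lower (18.1%), where 18.5% and 22% of all protein-coding genes were called. The shares of promoter genes stayed near the background in both forms, so nothing about the members can be read from them.

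**Figure D5:**
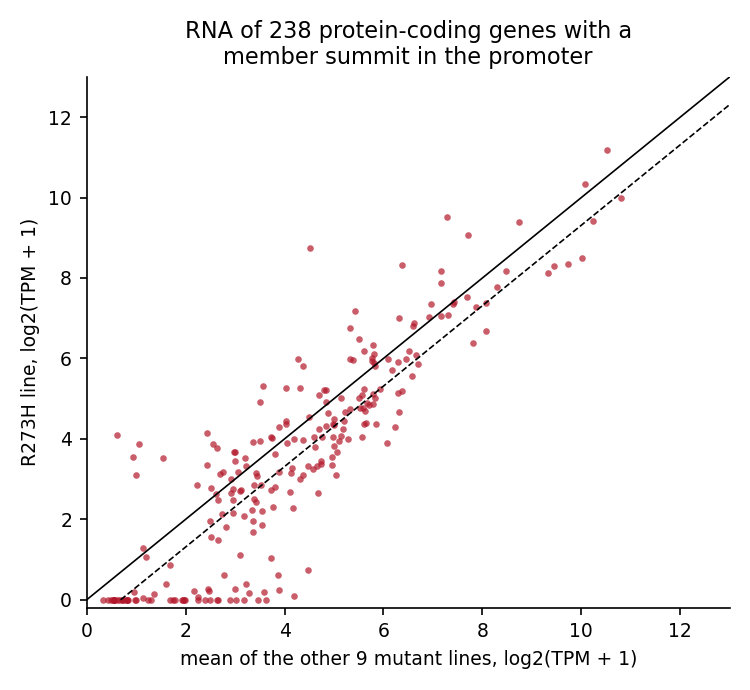
Each point is 1 of the 238 protein-coding genes with a member summit in its promoter, with the mean log2(TPM + 1) of the other 9 mutant lines on the x axis and the R273H value on the y axis. The solid line marks equal values and the dashed line the median shift of −0.69 of all protein-coding genes. Points scatter to both sides of the dashed line, and a row of genes lies at or near 0 in R273H.

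Among the 238 genes, those lowest in R273H were listed at or near 0 there. MCC, a regulator of WNT signalling, was at 0.11 in R273H and from 2.57 to 5.20 (median 4.23) in the other 9 lines. TIMM29, of the mitochondrial import machinery, was at 0.73 against 2.76 to 5.78 (median 4.34). FBXL16, an F-box protein, was at 0.24 against 2.63 to 5.29 (median 3.71). In these 3 genes R273H lay below all 9 others, as it did in DENND1A. The prolyl isomerase gene PIN4 was at 0 against 1.11 to 5.44, the transcription factor gene ZNF143 at 0.62 against 2.99 to 4.38, and the peroxisomal oxidase gene ACOX2 at 0 against 1.06 to 5.07. KLHL22, an adaptor of CUL3 ligases, was at 0.16 against 1.93 to 4.22, and the splicing gene CLASRP at 0 against 1.22 to 4.33. VRK3, of the vaccinia-related kinase family, was at 0.19 against 0 to 5.33, so here the ranges overlap. Member peaks at these promoters rested on 5 to 13 fragments.

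The 10 genes highest in R273H relative to the others differed from the mean of the others by 1.75 to 4.25 on the log2 scale. NARS2, the mitochondrial asparaginyl-tRNA synthetase, was at 8.76 in R273H and from 2.79 to 5.36 (median 4.54) in the others. CBWD3, which has near-identical relatives, so that its value is uncertain (sharing of reads was not tested), was at 4.10 against 0 to 1.39. TBC1D32, needed for cilia, was at 3.88 against 0 to 1.90, and SH2B1, an adaptor of JAK2 signalling, at 3.54 against 0 to 2.14. R273H lay above all 9 others in these genes. It was above them also in TMEM179B (9.53 against 6.55 to 8.50), the adenosine receptor gene ADORA1 (3.10 against 0 to 3.02), ZNF641 (3.54 against 0.07 to 3.21), SMARCA4, the BRG1 ATPase of SWI/SNF complexes (8.32 against 5.89 to 7.20), and ST13, a partner of HSP70 (7.18 against 3.75 to 6.44). STXBP2, of the exocytosis machinery, was at 5.32, inside 1.38 to 5.54. Their member peaks rested on 5 to 12 fragments.

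Of the genes of the p53 target, pathway and marker lists, each counted once, 4 (1.63%) had a member in a promoter and 25 (10.2%) had a member anywhere in the gene. Over all protein-coding genes of the annotation, the shares were 1.65% and 8.13%, so the listed genes were near the background in both. The lists with the highest share of genes holding a member, leaving out the list of 1 gene, were feedback and repair targets of p53 (18.8%, with POLH, RRM2B and RPS27L), the basal list (17.6%, with LAMB3, COL17A1 and EGFR), the junction list (16%, with CTNNA1, TJP1, DSC3 and PATJ) and the Hippo pathway (14.8%, with STK3, TAOK1, TNIK and FRMD6), each 3 or 4 genes. No gene of the 16 p53 targets of arrest and senescence and none of the 16 of apoptosis had a member in a promoter. Of the 16 of feedback and repair, RPS27L, a ribosomal protein paralog induced by p53, had a member of 7 fragments with a p53 decamer, and its RNA was at 6.19 in R273H, within 3.56 to 6.84. CDKN1A, the p21 inhibitor of cyclin-dependent kinases, had its promoter peak among the rows shared with WTOE and a member elsewhere in the gene. Of 25 junction genes, CTNNA1, or α-catenin, had a promoter member of 6 fragments (RNA 9.38, within 7.36 to 9.43). Of 22 mesenchymal genes, SNAI2, which encodes SLUG, had a promoter member of 8 fragments (RNA 5.56, within 5.17 to 7.75). CASZ1, a zinc finger gene, had a promoter member at the lowest depth called, 5 fragments, and its RNA was at 0 in R273H and from 0 to 1.21 in the others. None of the genes listed for the Hippo pathway (27), YAP and TAZ targets (22), cholesterol synthesis (23), the basal (17) or luminal (13) mammary lists, proliferation (20), immediate early genes (16), or fibroblast (8), endothelial (5) or blood markers (5) had a member in a promoter.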

How the data were processed

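V5 ChIP and matched input were sequenced in 5 MCF10A lines and RNA in 13, with 1 library per line and assay (23 samples). The study aligned ChIP reads to GRCh38 with Bowtie2 2.1.0, removed unmapped and non-primary reads with SAMtools 1.7 and named no filter on mapping quality. Peaks were called by the authors with MACS2 2.1.2.20181017 on read pairs against input at a q of 0.05. The deposited peak lists give fold (a ratio of ChIP to expected pileup), −log10 p and −log10 q and an integer score. The deposited RNA table holds log2 values, log2(TPM + 1) per gene, made by the authors after alignment with STAR. RNA depth is unknown from this unit, and the total read count of the ChIP libraries was not used here. The study reported high read duplication in the RNA libraries and left out mitochondrial RNA before scaling to TPM. Duplication also varied widely among its ChIP libraries. The part of these features in the values was not tested. The control ChIP of the WT line was not analysed here.

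From these files, members were found by the rule given in the report. Windows reached 150 bases to each side of a summit and were read from GRCh38. They were set beside windows shifted by 5 kb to each side and windows tiled over the uncrowded bins, of which 1 in 20 was read for repeats. Families used blastn 2.17.0 and networkx 3.6.1, copy numbers were the median over 5 words of 31 bases, and annotation was GENCODE 44. Other steps used Python 3.11.15, numpy 2.4.6, pandas 2.3.3, scipy 1.17.1, pysam 0.24.0 and samtools 1.23.1, and the sequence measures were checked on simulated data. Members and gene lists were chosen with earlier results of these data known, and the repeat classes and the tandem limit of 70% were set after values had been seen.

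RNA of R273H was set against the mean of the other 9 mutant lines for genes at a log2 value of 1 or more in at least 3 lines, and a difference of 1 (2-fold in TPM + 1) was called. With 1 library per line no test was run, and each difference is that of the libraries. Named regions were, outside chromosome 8, the 5 members of highest q, those with a full p53 site and up to 5 in at least 2 other mutant lists. The strongest LINE-1, Alu, SVA and single-copy members, and the LINE-1 copies with most summits, were named after values had been seen. Named genes were the 10 protein-coding genes with the strongest promoter members, the 10 of largest difference in RNA in each direction, and list genes with a promoter member. Alternatives varied the crowding limit, q, overlap, promoter, motif window, pseudocount, filter, reference lines and scaling. Some sequences and the level of 1 gene are not reported here.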

Additional observations from a re-analysis of the deposited data

How the results depend on the processing

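No paired analysis was possible because each line gave 1 library per assay. Of the alternative values, 58 stayed within the error or within 1.5 times the count reported, 21 moved, and none turned its direction. With bins under 5 rows, the promoter share was 10.6%, the share in another mutant list 1.18%, and 13 promoter genes were at least 1 higher in R273H RNA. With bins under 20 rows, the first 2 were 13.7% and 2.42%. At a q of 0.01 the share in another list was 2.51%, and with an overlap of 50% it was 1.04%. Promoters from 1000 bases before a start held 6.55% of members and 4.31% of bases, and promoters of protein-coding genes held 7.44% and 5.36%. With promoters from 1000 bases, 12 of 136 genes were at least 1 higher (8.82%) and 45 at least 1 lower (33.1%). Over all protein-coding genes tested the shares were 11.2% and 38.4%. The p53 decamer was in 3.65% of windows reaching 50 bases from the summit and 17.8% of those reaching 250. Quantile normalization gave 34 genes higher and 43 lower. An alternative added after seeing the data kept the 1173 members outside the repeat kinds with under 10 copies: their promoter share was 24.0%, decamer share 7.67% and share in another list 0.853%. Of their 141 promoter genes tested, 10 were at least 1 higher and 47 at least 1 lower, where 11.2% and 38.4% of all protein-coding genes were called. Over all alternatives the median fold was 4.09 to 4.82 and the median RNA difference of promoter genes −0.79 to −0.20. The 6-fragment median depth of members limits every statement about a single region.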
